A study of Solanum virginianum with 2 samples.

Results

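The miR164 and miR394 families and the NAC and FBX6 transcripts paired with them were followed in a small RNA library and a degradome library of eggplant pistils. Members were all entries whose small RNA name held miR164 or miR394. That gave 12 of the 686 listed small RNA sequences and 247 of the 18764 pairs that were predicted between small RNAs and transcripts. Of the 135 transcripts in those pairs, out of 12937 in the table, 4 carried a NAC or FBX6 symbol: NAC021, 2 transcripts named NAC100, and FBX6. The pistils came from 'B3-3', a long purple eggplant on whose plants short-styled (S-morph) and long-styled (L-morph) flowers occur together. Each library was made from a mixture of pistils of both morphs, so no value below compares the morphs. For both libraries the sample labels name days 1 to 3 and days 3 to 6 of flower development, counted from budding, while the extraction text in the labels names a pool of 6 samples for the degradome that also covers phase 5, days 13 to 15. The labels give the organism as Solanum virginianum and the series title names Solanum melongena.

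In plants, a miRNA bound to an Argonaute protein pairs with a near-complementary stretch of a messenger RNA, which is cut opposite the middle of the miRNA. A degradome library sequences the uncapped 5′ ends that such cuts leave behind. miR164 is known from Arabidopsis and tomato for directing the cutting of transcripts of NAC transcription factors of the NAM and CUP-SHAPED COTYLEDON group, which keep organ boundaries apart and shape the margins of leaves and carpels. miR394 is known from Arabidopsis as a mobile signal of the shoot tip that represses the F-box protein LEAF CURLING RESPONSIVENESS and so keeps stem cells competent. FBX6 is the database symbol of that Arabidopsis F-box gene. NAC021 is the symbol of Arabidopsis NAC1, a factor of auxin signalling and lateral root growth, and NAC100 is a related Arabidopsis NAC gene that miR164 also targets.

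The small RNAs that carry the results are shown first, each read 5′ to 3′ as deposited, with bases 2 to 8 (the seed) in capitals. The main miR164 and the form that differs from it at the last base shared the seed GGAGAAG.
nta-miR164a: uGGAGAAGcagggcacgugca
cme-miR164a: uGGAGAAGcagggcacgugcu
Counted from 1 at the 5′ end of nta-miR164a, the change to cme-miR164a was A21U. The next miR394 forms shared the seed UGGCAUU.
nta-miR394: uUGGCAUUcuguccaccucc
aly-miR394a-5p_R+1: uUGGCAUUcuguccaccuccu
The last mature form of miR394 had 1 base added at its 5′ end, which shifts its seed to UUGGCAU.
nta-miR394_L+1: uUUGGCAUucuguccaccucc
Of the remaining names, 5 are shown: all those of miR164 and, for miR394, the name with the most reads.
aly-miR164c-3p_2ss11AC14CT: cACGUGUUcuccuucuccaac
ghr-MIR164-p5_1ss5TC: cUCUCGUUggagaagcagggcacg
nta-MIR164a-p3: aGCAGGGCacgugcauuacuaacu
vun-MIR164-p3_1ss1GT: uUUGCACGugcccugcuucuccaa
gma-MIR394b-p3_1ss22CA: uGGAGGUGggcauacugucaaa

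The miR394 family held 746 of the 135737 listed reads (0.55%, exact Clopper-Pearson 95% interval 0.511 to 0.59%) and the miR164 family held 501 (0.369%, 0.338 to 0.403%). Ordered by reads, they stood at positions 23 and 25 of the 77 families named in the table, which ranged from 1 to 36554 reads with a median of 40. The ratio of miR394 to miR164 reads was 1.49 (exact 95% interval 1.33 to 1.67), and 1.66 (1.47 to 1.87) with the mature forms alone. There was 1 library of each kind, so these intervals cover counting error only, and PCR copies, which were not marked here, count as separate reads. Library preparation can also favour some small RNA ends over others, and its part in the ratio was not tested.

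**Figure D1:**
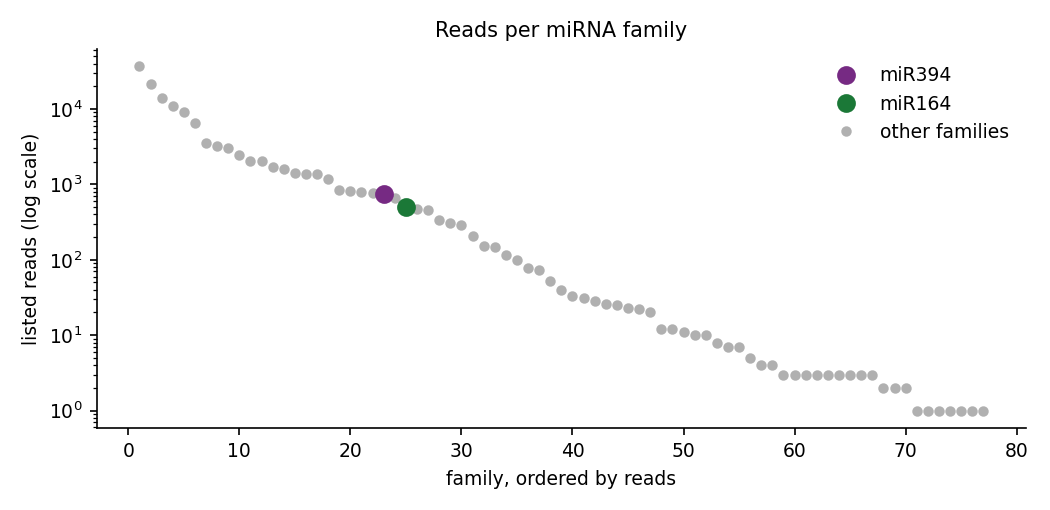
Listed reads (log axis) of each of the 77 miRNA families, ordered by reads on the x axis. miR394 (746 reads) and miR164 (501 reads) lie close together in the upper part of the range, well above the median of 40.

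Both families were dominated by a single mature sequence. nta-miR394 had 599 reads, or 80.3% of its family (77.3 to 83.1%), and stood at rank 33 of all sequences. The form with the added 5′ base, nta-miR394_L+1, had 138 reads (18.5%, 15.8 to 21.5%), and the form with 1 added 3′ base, aly-miR394a-5p_R+1, had 5. In the miR164 family, nta-miR164a had 444 reads, which was 88.6% of the family (85.5 to 91.3%), and stood at rank 40. cme-miR164a, the A21U form, had 3 reads. All 5 of these forms began with U, the usual first base of plant miRNAs loaded on ARGONAUTE1, and were 20 or 21 nt long.

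The other names of the families were rare and, for miR164, partly longer. aly-miR164c-3p_2ss11AC14CT, with the name of a strand from the opposite hairpin arm, had 25 reads at 21 nt. ghr-MIR164-p5_1ss5TC had 19 reads at 24 nt, and its last 17 bases were the first 17 of nta-miR164a. nta-MIR164a-p3 had 4 reads at 24 nt, and its first 15 bases were the last 15 of nta-miR164a. These sequences thus overlapped the mature miRNA on the same strand, displaced to either side. vun-MIR164-p3_1ss1GT had 6 reads at 24 nt and contained a run of 21 nt exactly complementary to the whole of nta-miR164a. In the miR394 family gma-MIR394b-p3_1ss22CA had 2 reads, and nta-MIR394-p3_1ss10GA and bdi-MIR394-p3_1ss15GA had 1 each. Of the 12 names, 6 had predicted pairs in the degradome table. The other 3 miR164 names (29 reads in all) and the other 3 miR394 names (4 reads) had none listed.

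**Figure D2:**
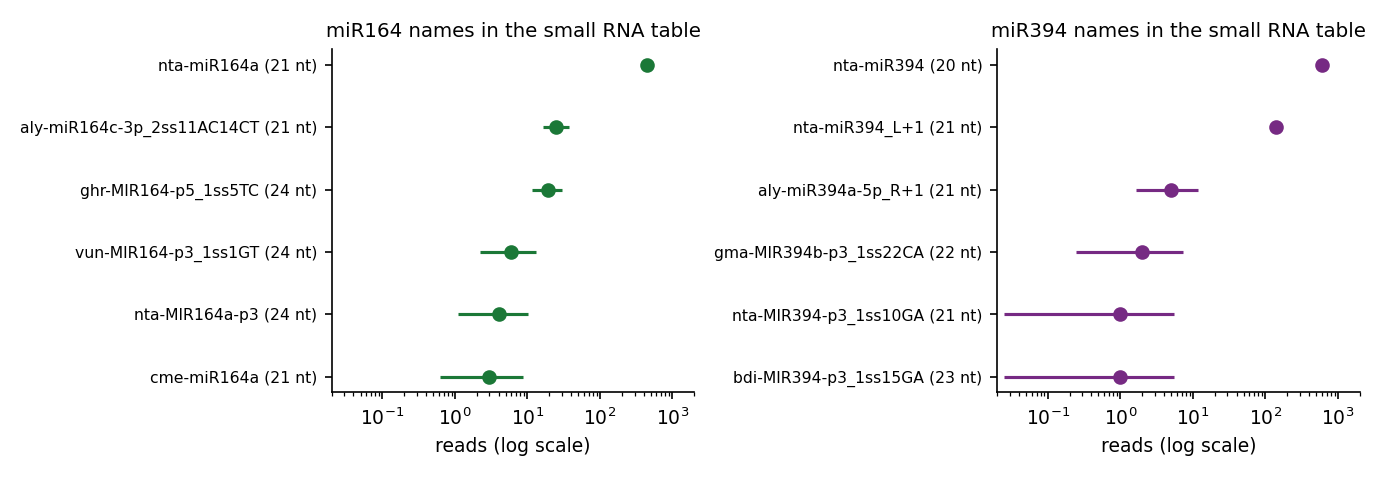
Reads (log axis) of each listed name of the miR164 (left) and miR394 (right) families, with exact Poisson 95% intervals as lines and the length in brackets. nta-miR164a (444 reads) and nta-miR394 (599) lead, followed in the miR394 family by the form with an added 5′ base (138).

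FBX6 (Sme2.5_07638.1_g00002.1), an F-box gene whose product would mark other proteins for degradation, was the only transcript of the 116 predicted for miR394 with a degradome read listed for a miR394 pair. At its nucleotide 1166 it had 6 raw reads (exact Poisson 95% interval 2.2 to 13.1) and at nucleotide 1165 it had 4 (1.09 to 10.2). The authors placed nucleotide 1166 in category 0, by convention the highest signal on its transcript, and nucleotide 1165 in category 2. Their p was 0.00241 at nucleotide 1166 and 0.126 at nucleotide 1165. Normalized reads equalled raw reads at both positions, as they did in 64.4% of all detected pairs, so no sharing with other places was recorded. The only other small RNA paired with FBX6, ptc-MIR6426b-p3_1ss3AG, aligned to nucleotides 69 to 89 with a score of 2, and no read was listed there.

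These adjacent positions were listed by the authors for different forms of miR394. The reads themselves do not show which form made a cut. nta-miR394 aligned to nucleotides 1155 to 1174, aly-miR394a-5p_R+1 to 1154 to 1174 and nta-miR394_L+1 to 1155 to 1175, all with an alignment score of 1 (0 is the best and 4 the worst listed). The score was thus the same whether or not a base was added at either end. In all 3 alignments the listed position was the nucleotide opposite base 10, 9 nt before the end of the alignment, as in 923 of the 1010 detected pairs. The other detected pairs were listed 8 or 10 nt before the end. Positions were thus listed only near base 10, and the match to base 10 is not a separate result. Bases 10 and 11 are in capitals in the lines that follow, and the added 5′ base moves them by 1 nt along the target.
nta-miR394_L+1: uuuggcauuCUguccaccucc
nta-miR394: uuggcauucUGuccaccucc
The form with the added base made up 138 of the 742 mature miR394 reads (18.6%, 15.9 to 21.6%), and the position opposite its base 10 held 6 of the 10 FBX6 reads (60%, 26.2 to 87.8%). The forms without it made up 604 of the 742 (81.4%, 78.4 to 84.1%), and the position opposite their base 10 held 4 of the 10 reads (40%, 12.2 to 73.8%). The interval of the share at nucleotide 1166 lay above that of the reads of the matching miR394 form. The shares come from different libraries and 10 reads, and no test was made of their difference.

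Listed positions 1 nt apart occurred on 17 of the 666 detected transcripts, in 20 pairs of positions. The higher-numbered position had more reads in 2 of the 20, FBX6 and the floral identity gene AP2 (48 against 2), which were singled out after their values were seen. The lower-numbered position had more in 14, and 4 were equal. These were not all separate observations, since ATHB-15 and RPL5 each enter more than 1 time. ATHB-15 and ATHB-8 had equal raw reads (14 and 3) and equal normalized reads (4.67 and 1). AGO4A and REV were also alike (6 and 1 raw reads). The same reads may thus be listed on several transcripts. Within category 0, which held 40 transcripts with 2 to 130 raw reads and a median of 14, FBX6 had fewer reads than 24 transcripts, as many as 3 others and more than 12.

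NAC021 (Sme2.5_01832.1_g00005.1) had 2 raw reads at nucleotide 676 (0.242 to 7.22), in category 2. It was paired with nta-miR164a and cme-miR164a, both aligned to nucleotides 665 to 685 with base 10 opposite the listed position, and with no other small RNA in the table. Its score was 2 for nta-miR164a (authors' p 0.108) and 1 for cme-miR164a (authors' p 0.126). The gene ontology terms deposited with this transcript include auxin signalling, lateral root development and specification of the shoot apical meristem. The FBX6 reads at both positions together were 5-fold the NAC021 reads, 10 against 2 (exact 95% interval of the ratio 1.07 to 46.9). At nucleotide 1166 alone FBX6 had 6 reads, and their interval (2.2 to 13.1) overlapped that of NAC021 (0.242 to 7.22). Transcript levels were not measured, so degradome reads do not give the share of a transcript that was cut.

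NAC100 was represented by 2 miR164 transcripts, and 1 of them was detected. Sme2.5_00136.1_g00021.1 had 1 raw read at nucleotide 604 (0.0253 to 5.57), in category 4, the class of single reads, with an authors' p of 0.254 for cme-miR164a and 0.365 for nta-miR164a. Sme2.5_00298.1_g00016.1 had the same scores, 4 for nta-miR164a at nucleotides 626 to 646 and 3 for cme-miR164a at 625 to 646, and no read was listed. On all 3 NAC transcripts the score was lower by 1 for cme-miR164a, the form with 3 reads, than for nta-miR164a, the form with 444. On both NAC100 transcripts the range for cme-miR164a spanned 22 nt for a 21 nt RNA, whereas that for nta-miR164a spanned 21 nt. Normalized reads equalled raw reads for NAC021 and for the detected NAC100.

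**Figure D3:**
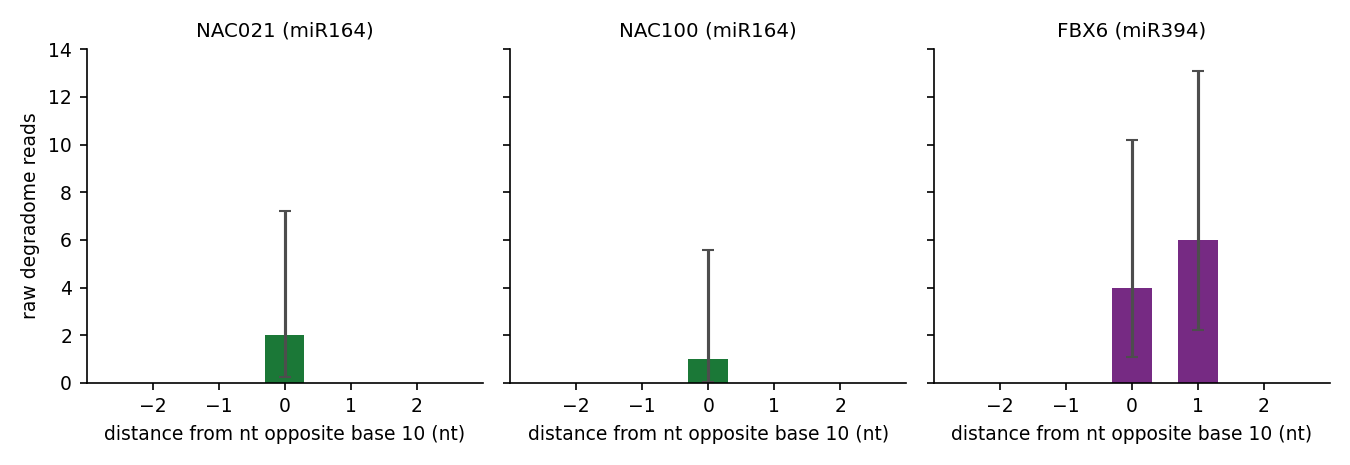
Raw degradome reads on NAC021, NAC100 (the detected transcript) and FBX6 by distance in nt from the nucleotide opposite base 10 of nta-miR164a or nta-miR394, with exact Poisson 95% intervals as error bars. FBX6 has 4 reads at 0 and 6 reads 1 nt on, NAC021 has 2 and NAC100 has 1 at 0. Positions with no bar were not listed.

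Against the whole table, 4 of 23 miR164 pairs (17.4%) and 3 of 224 miR394 pairs (1.34%) were detected, and 5.38% of all predicted pairs were. The 4 miR164 pairs lay on NAC021 and 1 NAC100 transcript, and the 3 miR394 pairs all lay on FBX6. Counting reads for any small RNA, 2 of the 19 miR164 transcripts (10.5%, 1.3 to 33.1%) and 2 of the 116 miR394 transcripts (1.72%, 0.209 to 6.09%) had a read, and 5.15% of all predicted transcripts had one. The second miR394 transcript was RANBP1A (Sme2.5_03582.1_g00004.1), which had 2 raw reads at nucleotide 40 for a miR396 name, and it was singled out after its values were seen. Detection in the table was more frequent at low alignment scores: 11.7% of all pairs with a score of at most 1, 10.7% of those with at most 2 and 8.22% of those with at most 3 had a read. In both families the transcript with the lowest score, NAC021 and FBX6, was detected. The next transcript in each family had a score of 2, carried no symbol and had no read listed (Sme2.5_01722.1_g00006.1 for aly-miR164c-3p_2ss11AC14CT and Sme2.5_11918.1_g00001.1 for miR394).

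**Figure D4:**
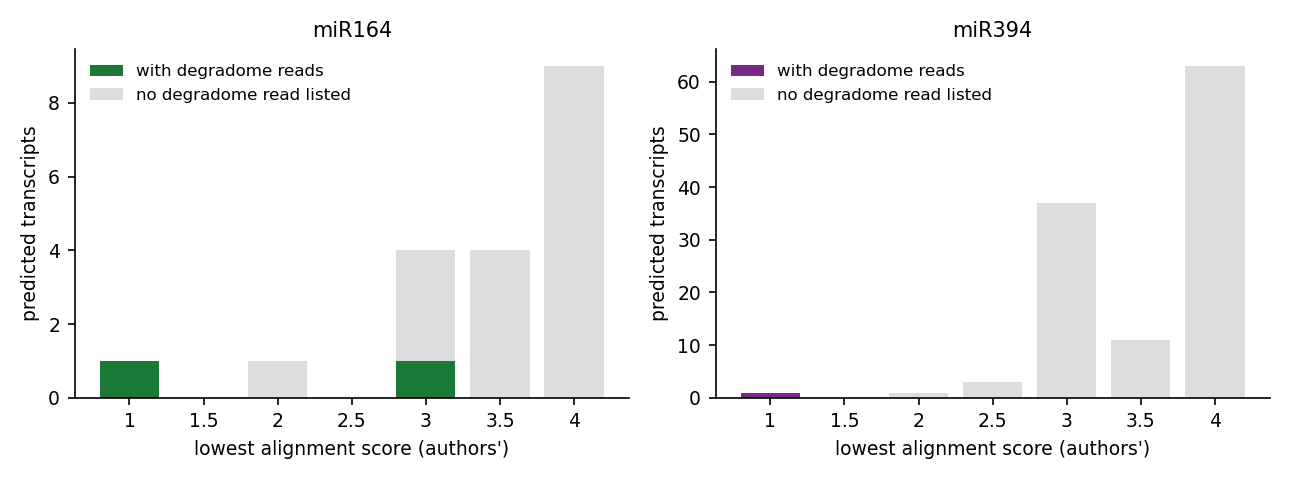
Number of predicted transcripts (y axis) by their lowest alignment score (x axis) for miR164 (left, 19 transcripts) and miR394 (right, 116), with transcripts detected for a pair of the same family coloured. Detected transcripts lie at scores 1 and 3 for miR164 and at 1 for miR394, while 63 of the miR394 transcripts lie at 4.

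By reads at the site, FBX6 stood high among the 825 detected positions of the table. NAC021 lay nearer the middle, and NAC100, with 1 read, at the lowest count. At least 6 raw reads, as at nucleotide 1166 of FBX6, were found at 12.4% of the positions, at least 4 at 20.2% and at least 2, as on NAC021, at 45.7%. Category 0 held 11.8% of all detected pairs, and an authors' p of at most 0.05 was given to 12.3%. Among the members, the pair of FBX6 and nta-miR394_L+1 was the only 1 of 7 detected pairs with either property. Categories 0 to 2 held 45.4% of all detected pairs, and took in the pairs of FBX6 and NAC021 but not those of NAC100.

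**Figure D5:**
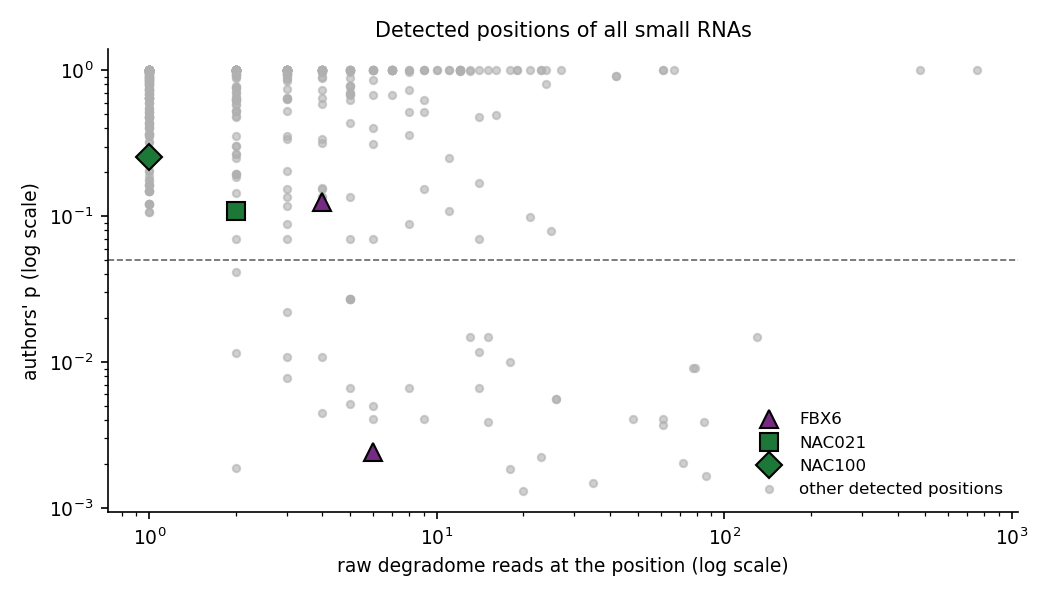
Authors' p (log axis) against raw reads (log axis) at each of the 825 detected positions, with the lowest category and then the lowest p kept where several small RNAs shared a position. The upper FBX6 position (6 reads, 0.00241) lies below the dashed line at 0.05, and the other FBX6 position, NAC021 and NAC100 lie above it.

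Most predicted partners of miR394 were of another kind than FBX6. Symbols of retroelement genes or of mitochondrial reading frames of the AtMg series, such as pol and TY3B-I, were carried by 66 of its 116 transcripts (56.9%), compared with 2781 of 12937 in the whole table (21.5%). A further 40 had no symbol, and 10 had another. Of the 66, 0 were detected, which allows a share of up to 4.55% if a count of 0 is taken to allow 3. Over all small RNAs, 10 of the 2781 transcripts with such symbols were detected, and 0.379% of the pairs on them. Detection on such symbols was thus rare for all small RNAs and not only for miR394. Outside these symbols 3 of 98 miR394 pairs were detected (3.06%), all on FBX6, and 6.61% of all such pairs were. The length of the list differed between forms: nta-miR394 had 112 predicted transcripts, aly-miR394a-5p_R+1 had 97 and nta-miR394_L+1 had 15. The last list shared 13 transcripts with that of nta-miR394, which was 86.7% of the 15 and 11.6% of the 112. Of the 15, 4 carried a retroelement or AtMg symbol. FBX6 was on all 3 lists.

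The predicted partners of miR164 were fewer and differed between its strands. nta-miR164a had 6 predicted transcripts and cme-miR164a had 8, with 4 shared: NAC021, both NAC100 transcripts and CYCD2-2, which carries the name of a D-type cyclin of cell cycle entry. CYCD2-2, named because it was shared, had no read listed. aly-miR164c-3p_2ss11AC14CT had 9 predicted transcripts, of which 0 were shared with either mature form and 0 were detected. Of all 19 transcripts, 1 carried a retroelement symbol, 8 had no symbol and 10 had another.

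Other NAC and F-box transcripts in the table were paired with other small RNAs. Of 17 NAC transcripts 4 were detected (23.5%), and 5.15% of all predicted transcripts were. The 12937 transcripts behind the 5.15% include 6692 without a symbol and 2781 with retroelement or AtMg symbols. Lists chosen by gene symbol hold neither kind, so 5.15% is not a like background for them. Of the 2781, 10 were detected, which lowers the 5.15%. The share among transcripts with other symbols was not worked out, so the values do not show an excess for these lists. Of the 17, 3 were predicted for miR164, with 2 detected, and 15 for other small RNAs, with 2 detected; 1 of the NAC100 transcripts was on both sides. The detected ones outside miR164 were NAC078 with 2 raw reads for a miR414 name, and NAC031 with 1 read for a miR6482 name. NAC031 is the symbol of Arabidopsis CUP-SHAPED COTYLEDON3, a boundary gene that lacks the miR164 site in that plant. Both had an authors' p of 1. The second NAC021 transcript of the table, Sme2.5_09643.1_g00001.1, was predicted only for a miR414 name at a score of 3.5 and had no read listed. The symbols NAM, CUC, GOB, NAC054, NAC098 and NAC092, which cover CUP-SHAPED COTYLEDON1 and CUP-SHAPED COTYLEDON2 and their relatives, appeared in 0 pairs.

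Of 27 transcripts with F-box symbols, 9 were detected (33.3%), 1 of them FBX6, against 5.15% of all predicted transcripts, with the limit given above. Besides FBX6 they were 4 TIR1 auxin receptor transcripts, with 61, 61, 9 and 9 raw reads for miR393, and the phloem-protein-type PP2A13, with 5 raw reads in category 0 for miR482 (authors' p 0.00519). Another PP2A13, FBL23 and EBF1, an F-box protein of ethylene signalling, had 1 read each. By reads at the site FBX6 (6) thus stood below the TIR1 transcripts and beside PP2A13 (5), although the reads of TIR1 were shared with other places (19.1 or 1.8 normalized reads). The TIR1 transcripts with 61 raw reads had equal normalized reads (19.1), as did those with 9 (1.8). The same reads may thus be listed on more than 1 TIR1 transcript, so the 9 detected F-box transcripts need not be separate detections. The 1 miR393 name on TIR1 had 4 of the 20 small RNA reads of its family. The 3 mature miR394 forms on FBX6 had 742 of the 746 of theirs.

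A list of other meristem and boundary symbols, such as CLV, WOX, BLH, LBD, RAX, YAB and SCL6, matched 21 transcripts, and 0 of them were paired with miR164 or miR394. For other small RNAs 4 of the 21 were detected (19%), against 5.15% of all predicted transcripts, with the limit given for the NAC list. The list does not hold every meristem gene: REV, ATHB-15, KN1 and FEA2, named after their values were seen, also had reads for other small RNAs. In 7 of the 21, all LBD or HEC3, the deposited annotation names another protein, and 3 of the other 14 were detected. SCL6, a GRAS factor of meristem maintenance and a known miR171 target, had 86 raw reads. YAB1, of the YABBY organ polarity genes, had 3. LBD11, of the lateral organ boundary domain genes, had 2, and its deposited annotation names a carbamoyl-phosphate synthase. BLH2, a homeodomain partner of meristem genes, had 1. Among these detected transcripts only SCL6 had an authors' p of at most 0.05 (0.00167). CLV1 and CLV2, receptors that limit stem cell number, RAX2, a MYB factor of axillary meristems, and WOX9 were predicted for other small RNAs with no read listed. The symbols WUS, STM, CLV3 and LCR appeared in 0 pairs. The gene LEAF CURLING RESPONSIVENESS (LCR) is entered here under its database symbol FBX6, which did have pairs.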

How the data were processed

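There was 1 small RNA library and 1 degradome library, without replicates or groups, so no test between conditions was possible. Per the file headers, the table of small RNAs holds read counts per distinct sequence; it lists named sequences, and its total is not the depth of the library. The degradome table holds raw read counts at the cleavage position of each detected pair, deposited by the authors. Its normalized reads and TPB, signal values deposited by the authors, were used to see whether reads were shared; TPB was 105 per normalized read. The alignment score, category and p-value per pair are the authors' deposited values, and the p-value was treated as unadjusted. Transcript names begin with Sme2.5. The programs behind these values were not given in the sources used here, and genome coordinates were not used. Per the labels' protocols, RNA was extracted with a Norgen Biotek kit, small RNA libraries were made with an Illumina TruSeq kit, and the degradome followed German and colleagues.

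Members were chosen by name. The members and the 3 gene lists (NAC, F-box, boundary and meristem) were chosen with earlier results of these data known. From the lists, 6 F-box and 5 boundary and meristem entries were dropped after they were seen, among them phosphatases, aldolases, SPT16 and a beta-amylase; LBD and HEC3 entries were kept although their annotation names another protein. Named were every small RNA of the families, every detected transcript and every NAC or FBX6 transcript of the families, and detected transcripts of the lists. Some list transcripts with no read listed (CLV1, CLV2, RAX2, WOX9 and the second NAC021) were also named by choice, and others were not. Retroelement symbols were grouped after they were seen. Shares carry exact Clopper-Pearson and read numbers exact Poisson 95% intervals; for a share of 0 the limit is 3 counts. Interval and name functions were tested on simulated data. The work used SciPy 1.17.1, pandas 2.3.3, NumPy 2.4.6 and matplotlib 3.10.9 under Python 3.11.15.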

Additional observations from a re-analysis of the deposited data

How the results depend on the processing

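No paired analysis was possible because each kind of library was made 1 time and no result comes from a test. Without the most abundant listed sequence in the total, the miR164 share of listed reads was 0.486% and the miR394 share 0.723%. The miR164 share was 0.332% with only names without a substituted base, and 0.329% with only the mature forms, an alternative chosen after seeing the data. The count of 2 detected miR164 transcripts became 1 in categories 0 to 2 and 0 with an authors' p of at most 0.05. The 1 transcript detected for a miR394 pair was counted under all 4 alternatives for it. The FBX6 reads were 10 summed over both positions. The remaining alternatives left shares and reads within their counting intervals. With 1 to 6 reads at a position, counting error limits every degradome value given.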
